A study of Mus musculus with 6 samples.

Results

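The proteasome is the large protease that degrades proteins tagged with ubiquitin. Its barrel, the core particle, stacks rings of alpha subunits, which form the gate, around rings of beta subunits, some of which cut peptide bonds. A regulatory particle caps the barrel: its ATPases unfold the substrate, and its other subunits bind and remove ubiquitin. Interferon replaces the cutting beta subunits by inducible ones, which gives the immunoproteasome, and the genes described here encode the constitutive form that most tissues carry. They were taken by gene symbol, as all genes named Psma to Psmg followed by a number, without the immunoproteasome genes Psmb8, Psmb9, Psmb10, Psme1 and Psme2. That left 44 of the 23284 genes in the table.

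RNA came from mouse parietal cells, which secrete gastric acid, sorted by flow cytometry on the red protein tdTomato (Tom). The 3 control libraries have the genotype label Transgenic-Tom, and the 3 noggin libraries Transgenic-Tom-nog. The noggin mice carry H+/K+-Cre, H+/K+-Nog and Rosa26-tdTom: the promoter of the H+/K+ ATPase, the proton pump of parietal cells, drives Cre, which switches on tdTomato, and noggin (Nog), a secreted antagonist of bone morphogenetic proteins. The sources used here do not list the controls' alleles besides Tom or any age. The libraries are labelled biological replicates, without stating whether each was an animal or a pool, and the p-values measure the spread between them.

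All levels are FPKM, the authors' read counts scaled by transcript length and by mapped reads, and the depth behind them is unknown. Total FPKM was 595736 to 669124 in controls and 797168 to 1188186 in noggin libraries. Noggin replicate 3 listed 542 of the 10644 tested genes at 0, against 19 to 34 in each other library. Parietal markers summed to 33081 to 39818 FPKM in controls and 29302 to 33250 in noggin libraries over 8 genes. Of these 5 were lower without overlap, 1 higher and 0 listed at 0. Over all tested genes 20.3% were higher and 18% lower without overlap, the shares to set beside each marker count. Mucous neck markers summed to 1929 to 2490 FPKM against 8573 to 21968 over 4 genes, all 4 higher without overlap. Chief cell markers summed to 38099 to 67082 FPKM against 42988 to 112567 over 5 genes, all with overlapping groups. Pit cell markers summed to 9170 to 13966 FPKM against 9098 to 23640 over 4 genes, with 1 lower without overlap. Enteroendocrine markers summed to 441 to 2678 FPKM against 1893 to 28591 over 6 genes. The sums overlapped, while 3 of the genes were higher without overlap. Limma called 2 of the 6 higher, Ghrl and Chga (adjusted p = 0.0159 and 0.0312). It also called all 4 mucous neck markers higher and 3 parietal markers, Slc26a7, Esrrg and Hip1r, lower. Of chief cell and pit cell markers it called 0. Over all tested genes it called 1.75% higher and 0.695% lower. In bulk RNA, fewer cells of a type and less RNA per cell cannot be told apart, and the part of these shifts in the results was not tested.

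By role, the genes comprise 7 alpha and 7 beta subunits of the core, 6 ATPases and 11 other subunits of the regulatory particle, 7 assembly chaperones (Psmd5, Psmd9, Psmd10 and Psmg1 to Psmg4) and 3 further regulators (the activators Psme3 and Psme4 and the inhibitor Psmf1). The other 3 are no general subunits. Psma8, known from testis, was listed at 0 in 3 of 6 libraries and reached at most 0.0408 FPKM. Psmb11, the catalytic subunit of the thymus, lay between 0.0672 and 0.743 FPKM. Psmc3ip is a meiotic recombination factor that the symbol rule takes in by name only. Its level was 1.46, 1.76 and 1.05 FPKM in control replicates 1 to 3, and 2.24, 1.47 and 6.78 FPKM in noggin replicates 1 to 3. The groups overlapped, its log2 fold change was 0.72 and 0.23 without noggin replicate 3, and its mean was the lowest among the tested members. A gene was tested when it reached 1 FPKM in at least 3 libraries, as 42 members did; Psma8 and Psmb11 did not.

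Most core subunits had higher levels than most regulatory ones, but Psma5 did not. Control means ran from 47.4 FPKM (Psma5) to 267 FPKM (Psma7) over the alpha subunits and from 119 FPKM (Psmb7) to 230 FPKM (Psmb5) over the beta subunits. They ran from 48.3 to 126 FPKM over the ATPases, 42.04 to 148 FPKM over the other regulatory subunits, 10.3 to 39.8 FPKM over the chaperones and 7.22 to 52.3 FPKM over the regulators. Within a library the highest core level exceeded the lowest 5.40 to 5.99-fold in controls and 4.23 to 6.24-fold in noggin libraries, although the assembled core holds its 14 kinds of subunit in equal number. Across the 31 structural subunits, the group means had a Spearman correlation of 0.944; this is across genes, which share libraries and are not replicates.

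**Figure D1:**
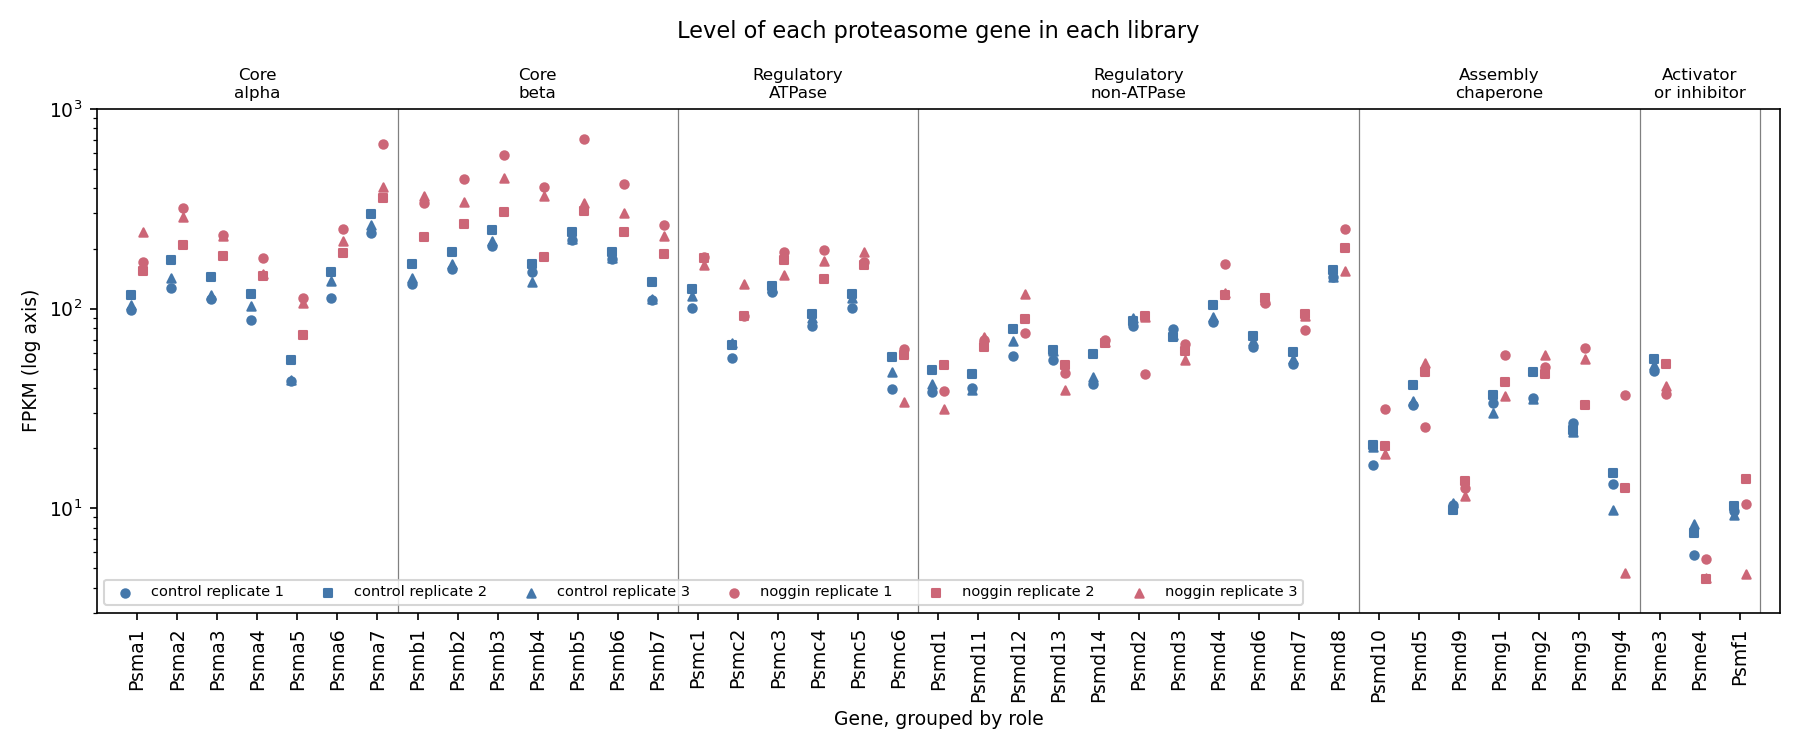
FPKM (log axis) of 41 of the 44 genes by role, 1 point per library (blue controls, red noggin; marker shapes are replicate numbers); Psma8, Psmb11 and Psmc3ip are not plotted. All 14 core subunits lie higher in every noggin library than in every control on the deposited scale, as 20.3% of all tested genes do. Once libraries were rescaled to the same total, 26 of the 42 tested genes had a negative log2 fold change. The median of all 10644 tested genes was then -0.65.

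Comparing noggin with control libraries asks how parietal cell transcripts differ where the cells make noggin. No constitutive proteasome gene passed the test: limma called 0 of 42 higher and 0 lower at an adjusted p under 0.05, where it called 1.75% and 0.695% of all tested genes (2.44% in either direction). At an unadjusted p under 0.05 there were 25 members, all with higher values in noggin libraries, against 26.7% of all tested genes in either direction. Log2 fold changes, noggin over control on the log2(FPKM + 1) scale, had a median of 0.63 over the members and -0.033 over all tested genes. On deposited FPKM 35 members were above 0 and 7 below. With each library rescaled to the same total 16 were above and 26 below, at a median of -0.078 against -0.65 for all tested genes. That -0.65 is also the baseline for every rescaled value given below. Members made up 0.546% to 0.615% of total FPKM in controls and 0.516% to 0.645% in noggin libraries, which overlapped. Values were higher without overlap in noggin libraries for 26 members and lower for 3, as for 20.3% and 18% of all tested genes.

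The count called depended on noggin replicate 2. Without it the test called 18 members higher and 0 lower, against 11.2% and 7.75% of all tested genes: 6 alpha and 6 beta core subunits, 5 regulatory subunits and the chaperone Psmg3. Leaving out any other library gave 0.

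The beta subunits that cut were all apart from their controls on the deposited scale. Psmb5 (chromosome 14, 54614119 to 54618022 in mm10), of the chymotrypsin-like activity, had 222, 243 and 224 FPKM in control replicates 1 to 3. In noggin replicates 1 to 3 it had 705, 308 and 340 FPKM. Noggin replicate 1 lay far above the rest, and the log2 fold change of 0.87 (SE 0.317; adjusted p = 0.141 by limma) was 0.49 without it. Psmb6 (chromosome 11, 70525367 to 70527858), of the caspase-like activity, had 176, 192 and 179 FPKM as control, 419, 241 and 301 FPKM with noggin. Its groups did not overlap, at 0.77 on the log2 scale (SE 0.231; adjusted p = 0.104 by limma). Psmb7 (chromosome 2, 38588036 to 38644087), of the trypsin-like activity, had 111, 136 and 111 FPKM as control, 262, 189 and 231 FPKM with noggin. Here too every noggin library was above every control, with 0.92 as log2 fold change (SE 0.195; adjusted p = 0.0605 by limma). Psmb7 overlaps Nek6 on the other strand over 6571 bases; whether counting kept strand is not given, so their reads may not be told apart. In all, 10 members are overlapped by another protein-coding gene. For Psma2, Psmd1 and Psmg3 that gene lies on the same strand (AW209491, Gm21972 and Gm26938, over 8943, 5515 and 2816 bases). There reads may not be told apart even if counting kept strand.

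The promoters of Psmb5 and Psmb6 are shown because both hold the core of the antioxidant response element, TGACNNNGC, the letters that Nfe2l1 and Nfe2l2, factors known to act on proteasome genes, bind with small Maf proteins. Each is 80 bases ending just before the RefSeq start (GRCm38.p6, the build of mm10), on the gene's strand, with the match in capitals: Psmb5 at chr14:54617996-54618075 (minus) and Psmb6 at chr11:70525277-70525356 (plus).
Psmb5: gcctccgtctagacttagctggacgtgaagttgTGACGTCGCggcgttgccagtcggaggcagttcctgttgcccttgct
Psmb6: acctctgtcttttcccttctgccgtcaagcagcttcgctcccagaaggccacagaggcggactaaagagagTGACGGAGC
Over the 250 bases before the start, read on both strands, these letters stood in 13.2% of 38 windows of 36 member genes, 10.2% of all promoters and 12.2% of those of tested genes, so their share was near the background. The other 3 genes with a match were Psmc6, Psmd9 and Psmd12. No window was at hand for 8 members, so none of the motifs was searched there. These are Psmb7, Psma8, Psmb1, Psmb2, Psmc3, Psmd3, Psmd7 and Psmg2. A match is a run of letters, not a shown site.

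The beta subunits that do not cut had similar values. Psmb1 (chromosome 17, 15475021 to 15499751) had 133, 168 and 143 FPKM as control, 337, 228 and 366 FPKM with noggin. That was the highest log2 fold change of the 42, 1.04 (SE 0.229; adjusted p = 0.0638 by limma), and 0.33 after rescaling. Psmb2 had 158, 192 and 167 FPKM as control, 445, 267 and 341 FPKM with noggin, 1.00 on the log2 scale. Psmb3 had 207, 248 and 217 FPKM as control, 591, 305 and 452 FPKM with noggin, 0.95 on the log2 scale. In these genes noggin replicate 2 was nearest to the controls. For Psmb4, with 153, 167 and 136 FPKM as control and 406, 181 and 366 FPKM with noggin (0.98 on the log2 scale), it lay just above control replicate 2. Over all 7 beta subunits the median was 0.95, and 0.24 after rescaling, where 7 of 7 stayed above 0.

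Alpha subunits had a median of 0.79, and of 0.079 after rescaling, where 5 of 7 were above 0. Psma7 (chromosome 2, 180036374 to 180042433) had the highest mean level of all members. It had 239, 298 and 263 FPKM as control, 671, 360 and 405 FPKM with noggin, 0.79 on the log2 scale (SE 0.265; adjusted p = 0.123 by limma) and 0.52 without noggin replicate 1. Psma5 (chromosome 3, 108256926 to 108279974), lowest of the core in controls, had 43.2, 55.2 and 43.9 FPKM as control, 113, 73.4 and 107 FPKM with noggin. Its log2 fold change was 1.01 (SE 0.225; adjusted p = 0.0647 by limma). The most and the least abundant alpha subunit were thus both apart between groups. Psma1, Psma2, Psma3, Psma4 and Psma6 had log2 fold changes of 0.63 to 0.86, also without overlap. Among noggin libraries, replicate 2 was lowest for all 14 core subunits and replicate 1 highest for 12.

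Of the 6 ATPases 5 were higher without overlap, against 20.3% of all tested genes. The class median was 0.65 (-0.064 after rescaling, where 2 of 6 were above 0). Psmc4, picked out after its values were seen, had the lowest adjusted p of the members. It had 82.1, 93.5 and 89.5 FPKM as control, 197, 141 and 173 FPKM with noggin, 0.93 on the log2 scale (SE 0.188; adjusted p = 0.0511 by limma). With a filter of 5 FPKM it was the 1 member called higher, and 0 were called lower, against 2.68% and 1.09% of the genes then tested. Psmc6 stood apart from the other ATPases, with 39.5, 57.5 and 48.1 FPKM as control, 62.9, 58.8 and 34.2 FPKM with noggin. Its noggin replicate 3 lay below every control, and its log2 fold change was 0.070, or -0.089 to 0.34 when 1 library was left out.

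The remaining regulatory subunits went both ways: 7 of 11 were above 0 and 4 below, with a median of 0.43, and all 11 were below 0 after rescaling, with a median of -0.27. Psmd13 (chromosome 7, 140881968 to 140898643), of the lid, had 55.6, 62.2 and 61.4 FPKM as control, 47.6, 52.3 and 39.3 FPKM with noggin. All noggin libraries were below all controls, at -0.37 on the log2 scale (SE 0.186; adjusted p = 0.244 by limma). It overlaps Sirt3 on the other strand by 342 bases. Psmd3 (chromosome 11, 98682554 to 98695979), also of the lid, had 79.3, 72.3 and 73.4 FPKM as control, 66.5, 61.7 and 55.3 FPKM with noggin, again without overlap. Its log2 fold change of -0.29 (SE 0.169; adjusted p = 0.293 by limma) became -1.002 after rescaling (adjusted p = 0.0499 by limma). It was then the 1 member called lower, with 0 called higher, where 6.26% and 1.08% of all tested genes were.

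Psmd2 (chromosome 16, 20651652 to 20663414), a scaffold of the base, had 82.1, 86.3 and 89.4 FPKM as control, 47.1, 92.0 and 90.6 FPKM with noggin. Only noggin replicate 1 was low, and without it the log2 fold change went from -0.23 to 0.087. The other base scaffold, Psmd1, had -0.10, and -0.29 to 0.060 when 1 library was left out. The ubiquitin receptor Psmd4 and the deubiquitinase Psmd14 had 0.50 and 0.49, and the lid subunits Psmd6, Psmd7 and Psmd11 had 0.68, 0.63 and 0.70, each without overlap and each negative after rescaling. Psmd8 and Psmd12 had 0.42 and 0.43 with overlap, and as little as 0.25 and 0.26 when 1 library was left out (noggin replicates 1 and 3, respectively). The ratio of the median core level to the median regulatory level was 2.03, 2.29 and 2.03 in control replicates 1 to 3, and 4.17, 2.17 and 2.67 in noggin replicates 1 to 3. Noggin replicate 1 was high, and replicate 2 lay within the controls.

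Promoters of regulatory genes are shown for the letters CCGGAAG, which ETS family factors bind. They stood in 36.8% of member windows, 6.91% of all promoters and 14.4% of those of tested genes. By role, a split made after the matches were seen, they stood before 8 of 14 regulatory particle genes with a window (Psmc1, Psmc2, Psmc6, Psmd2, Psmd4, Psmd6, Psmd11 and Psmd12) and 1 of 11 core genes (Psma6), a difference that was not tested. The 3 stretches belong to plus-strand genes and have 80 bases each, ending just before the start for Psmd11 and Psmd2 and lying further upstream for Psmc2, with the match on the opposite strand and so written CTTCCGG: Psmc2 at chr5:21785161-21785240, Psmd11 at chr11:80428535-80428614 and Psmd2 at chr16:20651572-20651651.
Psmc2: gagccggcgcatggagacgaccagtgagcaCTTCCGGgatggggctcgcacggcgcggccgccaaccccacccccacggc
Psmd11: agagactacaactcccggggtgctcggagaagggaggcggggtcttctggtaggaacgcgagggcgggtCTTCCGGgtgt
Psmd2: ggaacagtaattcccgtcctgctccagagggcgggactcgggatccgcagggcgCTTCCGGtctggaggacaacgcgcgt
Of the 3 genes shown, Psmc2 had a log2 fold change of 0.71, Psmd11 0.70 and Psmd2 -0.23 on the deposited scale. The other regulatory particle genes with these letters had 0.070 (Psmc6) to 0.68 (Psmd6). Outside that class Psma6 had 0.71, Psmc3ip 0.72, Psmg1 0.42, Psme3 -0.27 and Psme4 -0.49. Whether the letters go with the fold change was not tested. CCAAT stood in 36.8% of member windows against 35.7% for tested genes, and GGGCGG in 50.0% against 58.6%. Matches of different motifs may overlap.

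Chaperones had a median log2 fold change of 0.27 (-0.395 after rescaling). Of the 7, 2 were higher without overlap, Psmd9 and Psmg3, against 20.3% of all tested genes. Psmd9 was at only 0.27 on the log2 scale (adjusted p = 0.480 by limma). Psmg3, which helps to build the alpha ring, had 26.8, 24.7 and 24.1 FPKM as control, 63.5, 32.8 and 55.8 FPKM with noggin, 0.93 on the log2 scale (SE 0.270; adjusted p = 0.1005 by limma). Its partner Psmg4 scattered instead, with 13.2, 15.04 and 9.80 FPKM as control, 37.1, 12.7 and 4.72 FPKM with noggin. The 3 regulators were all below 0. Psme4 (chromosome 11, 30771726 to 30880361), an activator linked to the degradation of acetylated histones, had 5.81, 7.51 and 8.35 FPKM as control, 5.56, 4.42 and 4.48 FPKM with noggin. Its log2 fold change was the lowest of the members, -0.49 (SE 0.289; adjusted p = 0.302 by limma), without overlap. Psme3 (chromosome 11, 101316213 to 101323537), the nuclear activator, had 48.9, 55.8 and 52.4 FPKM as control, 37.1, 52.9 and 40.7 FPKM with noggin, with overlap and -0.27 on the log2 scale, or -0.42 to -0.17 when 1 library was left out. Psmf1 had -0.12, or -0.41 to 0.28.

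**Figure D2:**
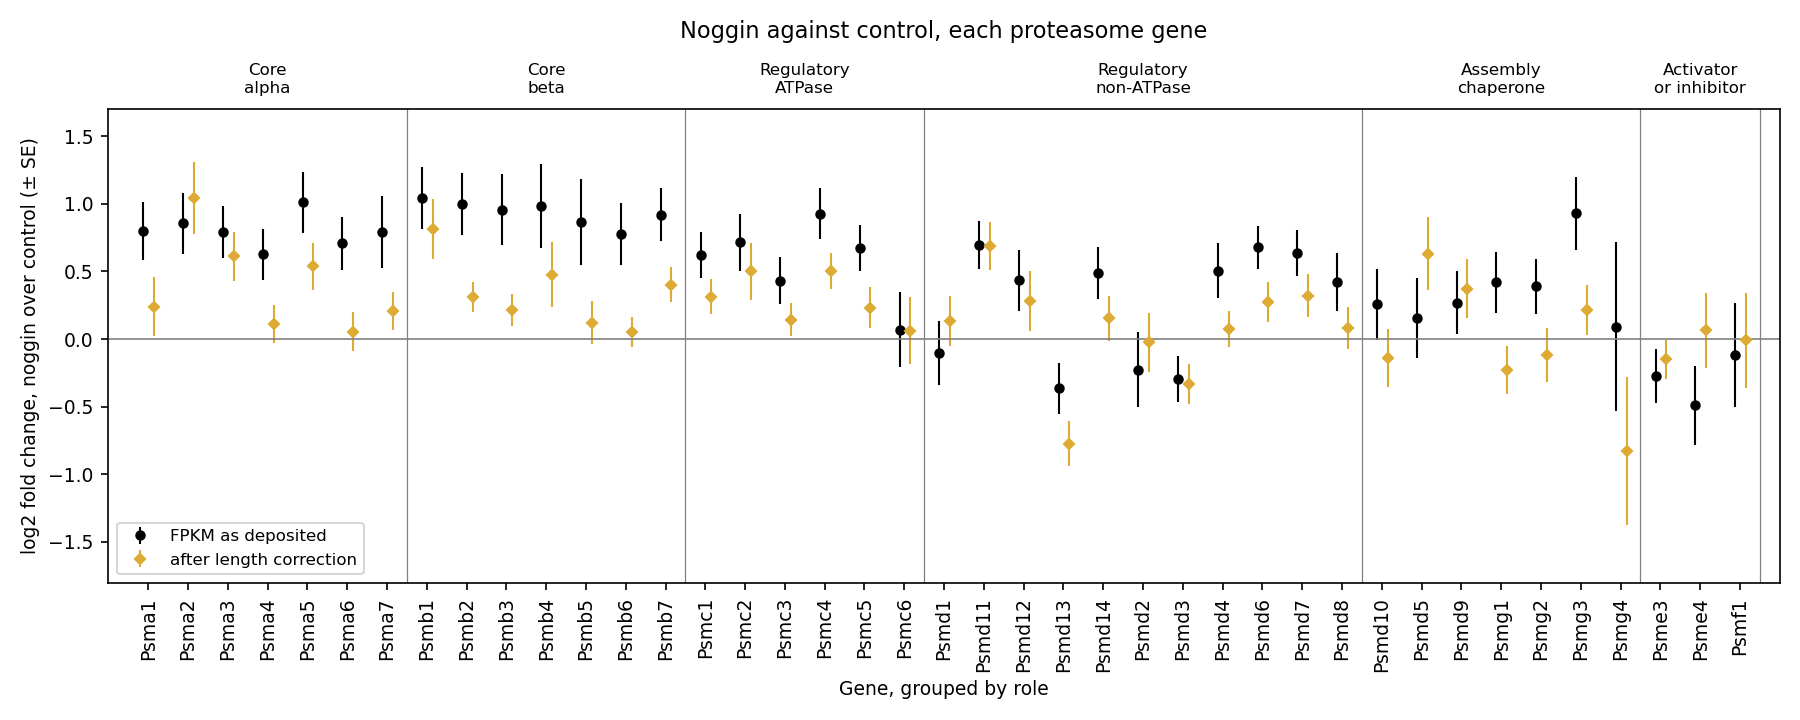
Log2 fold change of noggin over control (± SE from limma, 3 libraries per group) of 41 genes by role, on deposited FPKM (black) and after the length correction with the basic transcript set (yellow); Psma8, Psmb11 and Psmc3ip are not plotted. The 14 core subunits lie above 0 in both, and 12 of 14 do after rescaling to the same total. After that rescaling 26 of the 42 tested genes lie below 0, where the median of all 10644 tested genes is -0.65.

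Fold changes went with transcript length, and by how much depended on how length was taken. With the median over a gene's transcripts in the GENCODE basic set, tested members had a median of 1399 bases against 2525 over all tested genes. The Spearman correlation between length and log2 fold change was then -0.536 over 42 members and -0.554 over 10542 genes. Within classes it was 0.169 over the 14 core subunits, whose fold changes did not fall with length, and -0.358 over the 17 regulatory subunits. With the comprehensive set, which adds many partial transcripts, it was 0.094 over the members and -0.294 over all. The comprehensive set was run first, and the basic set was chosen after the results of both had been seen. Genes share the libraries, so these are descriptions.

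By basic length, members of 500 to 1000 bases had a median log2 fold change of 0.82 (8 genes), against 0.77 over 965 tested genes. From 1000 to 1500 bases it was 0.70 (14 members) against 0.47 over 1270 genes, and from 1500 to 2000 bases 0.62 (9 members) against 0.24 over 1484 genes. From 2000 to 3000 bases it was -0.023 (8 members) against -0.089 over 2606 genes, and over 3000 bases -0.10 (3 members) against -0.45 over 4031 genes. The shortest members thus lay close to other short genes, and those of 1000 to 2000 bases lay above theirs. Higher without overlap were 6 of the 8 (54.9% of tested genes of that length), 10 of the 14 (44.6%), 7 of the 9 (33.3%) and 3 of the 8 (12.3%). Over 3000 bases it was 0 of the 3 (4.66%).

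**Figure D3:**
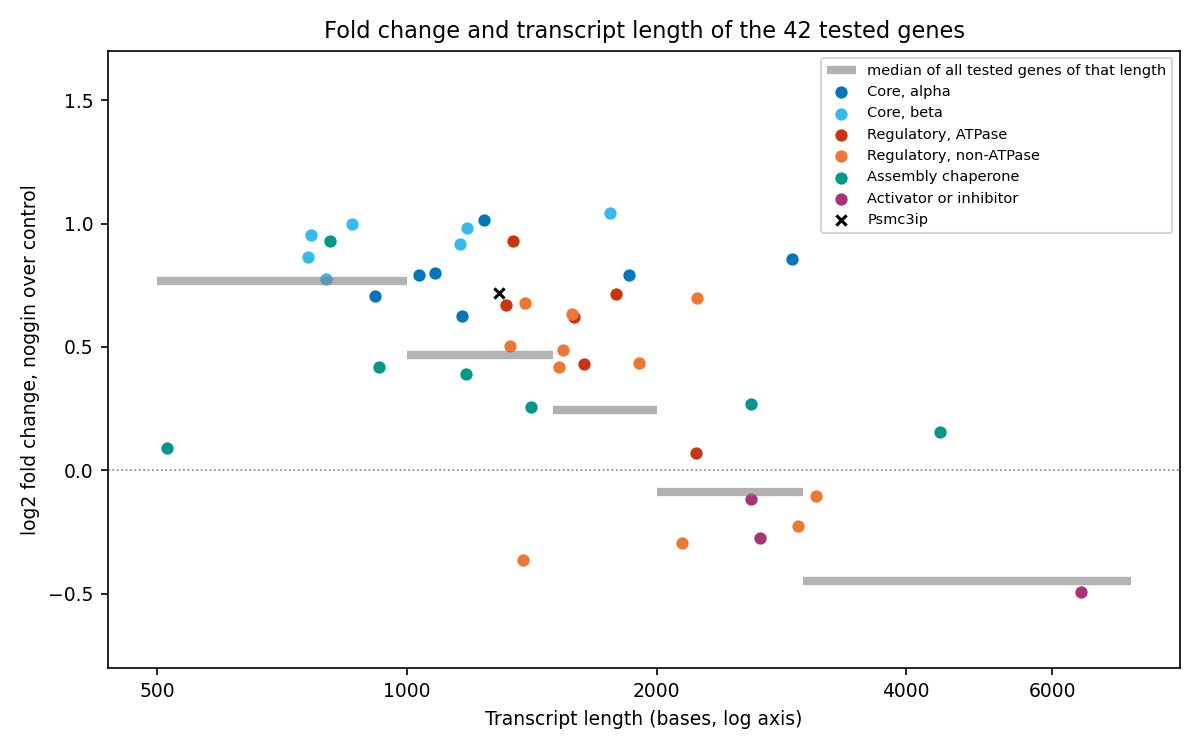
Log2 fold change (noggin over control, deposited FPKM) against transcript length in the basic set (log axis) for the 42 tested genes, coloured by role; grey bars are the median of all tested genes in each length range. Core subunits lie at 0.63 to 1.04 and Psmd13 at -0.37 among mostly short transcripts. Rescaling to the same total moves the member median to -0.078 and that of all 10644 tested genes to -0.65. With comprehensive lengths the members show no such fall with length (0.094).

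Removing each library's trend with basic length lowered the member median to 0.21, with 33 above 0, 9 below and 0 called, where 0.484% of genes were called higher and 0.18% lower. With comprehensive lengths the median was 0.51, also with 33 above 0, 9 below and 0 called. Core subunits stayed above 0 in both, at 0.053 to 1.04 with basic and 0.50 to 1.10 with comprehensive lengths. Psmb5 went from 0.87 to 0.12 with basic lengths and 0.75 with comprehensive ones, Psmb6 from 0.77 to 0.053 and 0.65, and Psmb7 from 0.92 to 0.40 and 1.06. How much of the core's difference remained thus depended on the transcript set. Psmd13 was at -0.77 (adjusted p = 0.0827 by limma) and -0.49. Psme4 was at 0.065 with basic and -0.75 with comprehensive lengths.

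The inducible subunits were compared with the constitutive ones that they replace. Psmb8, which takes the place of Psmb5, had 2.67, 4.47 and 2.43 FPKM as control, 101, 29.5 and 99.4 FPKM with noggin. All 5 immunoproteasome genes were higher without overlap in noggin libraries, as were 20.3% of all tested genes. Limma called 3 of the 5 higher, against 1.75% of all tested genes. Those called were Psmb8 at 4.05, Psmb9 at 3.15 and Psme1 at 1.25 on the log2 scale (adjusted p = 0.0159, 0.0257 and 0.04997). Psmb10 and Psme2 had larger log2 fold changes than Psme1 but were not called (adjusted p = 0.0861 and 0.0638 by limma). Psme1 stood at the threshold and was not called with either length correction. The log2 ratio of Psmb8 to Psmb5 was -5.81 ± 0.293 in controls and -2.63 ± 0.801 in noggin libraries (SD, n = 3 each), a difference of 3.18 (exact two-sided permutation p = 0.1). For Psmb9 to Psmb6 it was -4.52 ± 0.512 and -2.14 ± 0.431, a difference of 2.38 (exact permutation p = 0.1). For Psmb10 to Psmb7 it was -3.03 ± 0.254 and -2.45 ± 0.580, a difference of 0.58 with overlapping groups (exact permutation p = 0.3). With 3 against 3 libraries 0.1 is the smallest p possible, so none of the 3 ratios could pass 0.05, adjusted or not. Each inducible gene stayed below its partner in every library.

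A common scaling of a library cancels in these ratios apart from the pseudocount, and rescaling gave differences of 3.32, 2.45 and 0.61. Leukocyte markers were higher in the same libraries: over 10 genes they summed to 6.38 to 8.07 FPKM in controls and to 32.7, 56.5 and 277 FPKM in noggin replicates 1 to 3. Of the 10, 6 were higher without overlap, against 20.3% of all tested genes, but Ptprc and Lyz2 among them were not tested. Neither reached 1 FPKM in 3 libraries, although Lyz2 had 0.941, 5.77 and 52.6 FPKM in noggin replicates 1 to 3. Limma called 1 of the 4 tested, Fcer1g, higher, against 1.75% of all tested genes. Fcer1g, Tyrobp and Laptm5 lay below 1 FPKM in every control, so they were tested only through their noggin values. Coro1a, Cd3e, Cd79a and Csf1r were listed at 0 in at least 1 library. In noggin replicate 3 Cd74 made up 182 and Lyz2 52.6 of the 277 FPKM. The log2 ratio of Psmb8 to Psmb5 was also highest there, at -1.76, against -2.80 in replicate 1 and -3.34 in replicate 2. Replicates 1 and 2 ran the other way, with the higher leukocyte sum but the lower ratio in replicate 2. The log2 ratio of Psmb10 to Psmb7 was highest in replicate 1, at -1.96, against -2.30 in replicate 3. The part of leukocyte RNA in the ratios was not tested.

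**Figure D4:**
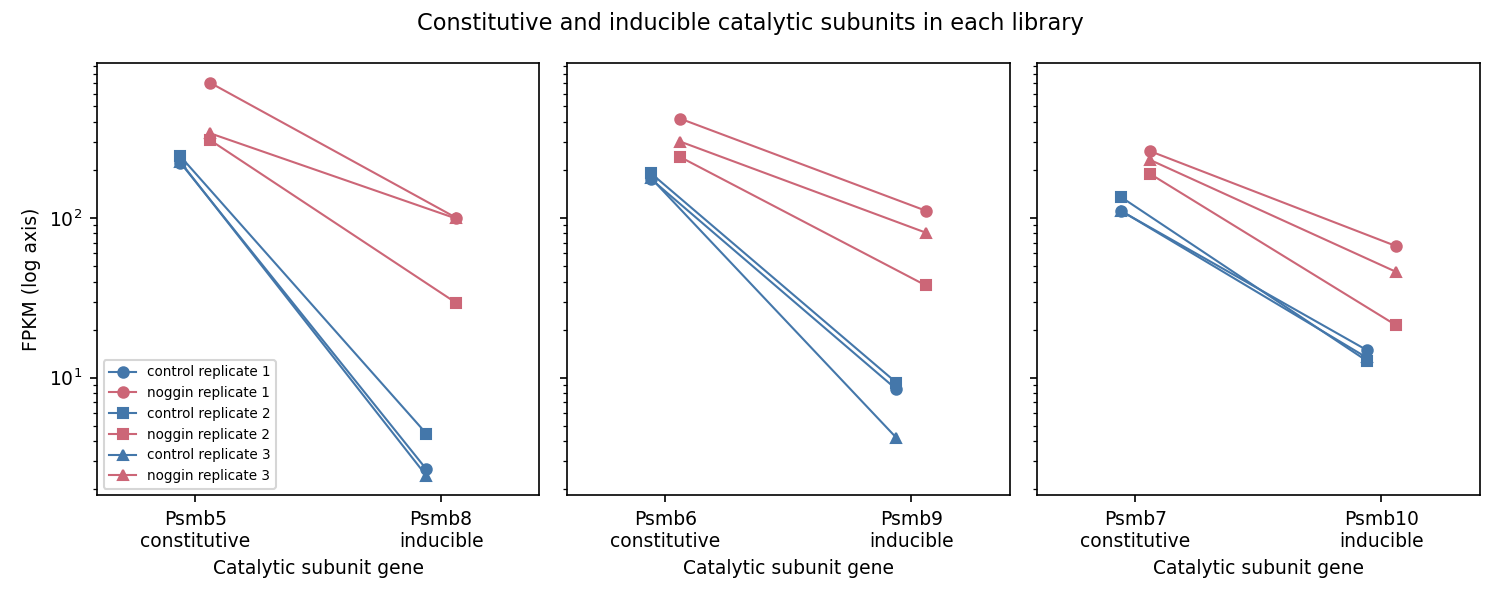
FPKM (log axis) of each constitutive catalytic subunit and the inducible one that replaces it, joined by a line per library (blue controls, red noggin). From Psmb5 to Psmb8 the log2 ratios are -3.34 to -1.76 in noggin libraries and -6.04 to -5.48 in controls, and those of Psmb10 to Psmb7 overlap.

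Genes that work with the proteasome were mixed. Of a list of 31 partners 30 were found and tested, and limma called 0 higher and 0 lower, where it called 2.44% of all tested genes. Unadjusted p-values were under 0.05 for 10 of 30, near the 26.7% of all tested genes, of which 5 had higher and 5 lower values with noggin on the deposited scale. The list's median was 0.13, with 17 above 0 and 13 below, and -0.52 after rescaling, where 4 were above 0. Nfe2l1, the factor that induces proteasome genes when degradation is blocked, had 28.7, 29.3 and 36.0 FPKM as control, 18.7, 10.04 and 5.77 FPKM with noggin. Every noggin library was below every control, at -1.50 on the log2 scale (SE 0.385; adjusted p = 0.0829 by limma), and -1.10 and -1.15 after the length correction with basic and comprehensive lengths. Nfe2l2, a related factor, had 0.20, or 0.041 to 0.45 when 1 library was left out, and -0.52 after rescaling.

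Among partners that bind the particle, AI314180, an older symbol of the adaptor Ecpas, had 12.05, 13.8 and 12.9 FPKM as control, 4.02, 7.65 and 2.93 FPKM with noggin. Its log2 fold change was -1.32 (SE 0.350; adjusted p = 0.0878 by limma). Shfm1, the small lid subunit also called Sem1, had 202, 251 and 203 FPKM as control, 827, 287 and 587 FPKM with noggin, 1.25 on the log2 scale (SE 0.369; adjusted p = 0.103 by limma). Neither gene overlapped between groups, and they lay on opposite sides. Pomp, the maturation factor of the core, had 0.80 without overlap, 0.51 without noggin replicate 1 and 0.083 after rescaling. Adrm1, a ubiquitin receptor, had 0.44 with overlap, 0.16 without noggin replicate 1 and -0.28 after rescaling. Nploc4, a cofactor that delivers substrates, had -0.96, and the ubiquitin gene Ubb had 0.68, and -0.034 after rescaling.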

How the data were processed

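RNA of 6 libraries of sorted parietal cells was measured, per the labels' protocols as 50 base single-end reads of SMART-Seq low input libraries. The deposited values are FPKM as the authors computed them. Listed in the submitters' processing notes are mm10, bcl2fastq and FastQC 0.10.0. No aligner, quantifier, annotation or strand setting is given in those sources. Groups came from titles.

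Genes reaching 1 FPKM in 3 or more libraries (10644) were fitted as log2(FPKM + 1) by limma 3.58.1 in R 4.3.3, two-sided, with trend and group as sole term, with Benjamini-Hochberg adjustment over them all and a threshold of 0.05. The 3 ratios had exact permutation tests. The fit was tested on simulated data. The length correction subtracts, per library, a lowess curve (span 0.3) of deviations from the gene mean against log2 median transcript length (GENCODE M21, found for 99.0% of tested genes).

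Members, lists and tests were chosen with earlier results of these data known. A pair of choices was changed after results had been seen: the length correction first used the comprehensive transcript set and now uses the basic set, and rescaling first used the mean total and now uses 1000000. Both earlier versions are reported. The tested-gene promoter background, the motif split by role and the stretches printed were also chosen after values were seen. Values per library are given for Psmb5, Psmb6, Psmb7, called members, the 5 highest and 5 lowest log2 fold changes, and the highest and lowest mean; of partners Nfe2l1, Nfe2l2, Pomp, Adrm1 and up to 4 by p are named. Psmc4, Psmc6, Psmg3 and Psmg4 were added after their values were seen. Alternatives were pseudocounts of 0.1 and 0.01, filters, rescaling, quantile normalization, length correction, no trend, a replicate block and leaving out each library.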

Additional observations from a re-analysis of the deposited data

How the results depend on the processing

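The count of members called higher, 0 as reported, was 1 with a filter of 5 FPKM, and 0 to 18 when 1 library was left out (18 without noggin replicate 2, 0 without any other). The count called lower, also 0, was 1 after rescaling, to either target. The member median of 0.63 was -0.078 after rescaling (to a total of 1000000 or to the mean total) and 0.18 after quantile normalization. It was 0.21 after the length correction with basic transcripts and 0.51 with comprehensive ones, and 0.55 to 0.71 when 1 library was left out. The median of all tested genes was -0.033 as reported, -0.65 after rescaling to 1000000, -0.63 with the mean total and -0.015 after quantile normalization. The member median lay above it by 0.66 as reported and by 0.57 after rescaling to 1000000. The basic set and the target of 1000000 were adopted after both versions of each had been seen. Over all tested genes, the basic set gave 51 calls higher and 19 lower and the comprehensive set 134 and 57; the target of 1000000 gave 115 and 666 and the mean total 130 and 820. When 1 library was left out, 14 of 42 members moved by over 1.5 times at least once, and 6 of them turned sign (Psmc6, Psmd1, Psmd2, Psmd5, Psmf1 and Psmg4). Psmd2 ran from -0.39 to 0.087 when 1 library was left out, positive without noggin replicate 1, and Psme4 turned to 0.065 with basic lengths but not with comprehensive ones. The ratio differences kept their sign in the settings run, at 2.75 to 3.54 (Psmb8 to Psmb5), 2.08 to 2.63 (Psmb9 to Psmb6) and 0.33 to 0.90 (Psmb10 to Psmb7) when 1 library was left out. The labels do not say whether same-numbered libraries were paired. Deviations of same-numbered libraries correlated at 0.11, -0.14 and 0.0052 across genes, and those of differently numbered ones at -0.13 to 0.12. With 3 libraries per group these correlations cannot decide whether the libraries were paired. With the replicate block 0 members were called in either direction, at a median of 0.63, and 22 had an unadjusted p under 0.05, against 25. Depth is unknown, so no limit from it can be given.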
